A study of Mus musculus with 6 samples.

Results

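Ceramide and sphingolipid synthesis was followed through 10 listed enzyme genes (Sptlc1, Sptlc2, Cers2, Cers4, Cers5, Cers6, Degs1, Sgms1, Sphk1 and Ugcg) in isoproterenol-stimulated white adipocytes after induced knockout of Dicer1 or vehicle. Of these genes 7 had a value and all 7 passed the filter on low values, among 10054 genes tested of 13734 in the table. Sptlc1, Cers2 and Cers6 are not analysed here. The cells came from an immortalized mouse line of subcutaneous white preadipocytes, Dicer1 flox/flox with Cre-ERT2, a Cre recombinase that acts once it binds a tamoxifen. After differentiation in a medium that included insulin and rosiglitazone, on day 6, the DICER_KO cultures (3 libraries) received 10 µM 4-hydroxytamoxifen for 48 h and the control cultures (3 libraries) received ethanol. Isoproterenol, which activates beta-adrenergic receptors, was added to all 6 cultures afterwards (10 µM, 6 h), and no unstimulated state was compared. The control libraries carry WT in their titles, but their genotype field gives the same floxed Cre-ERT2 line with vehicle, so they are floxed cells without the drug. Deletion and drug therefore cannot be told apart. The replicates are labelled biological replicates of this single line, and nothing says that they were differentiated separately. P-values therefore measure the spread between these libraries.

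Sphingolipids are built on ceramide. Serine palmitoyltransferase joins serine to a fatty acyl-CoA, ceramide synthases add a second acyl chain, and a desaturase completes ceramide, which is then turned into sphingomyelin or glucosylceramide, or broken down to sphingosine. In fat tissue these lipids are known as membrane components and as signals that bear on insulin action. Dicer1 codes for the enzyme that releases mature microRNAs from their hairpin precursors. MicroRNAs pair with messenger RNAs mainly through their seed (bases 2 to 8).

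The messenger RNA libraries do not measure mature microRNAs, so the letters below show only where seeds could pair with these genes. For 11 microRNA families, the reverse complement of the seed was searched on the sense strand of each gene's 3' UTR, taking the longest annotated one. The letters searched were CTACCTC for let-7, TGGTGCT for miR-29, ATGCTGC for miR-103, ACTGTGA for miR-27, TGTTTAC for miR-30 and TACTTGA for miR-26. They were ATAAGCT for miR-21, TGAATGT for miR-181, ATGTAGC for miR-221, GCACTTT for miR-17 and GGCAGCT for miR-22. Mature sequences follow for the families whose matches are shown, from RefSeq on GRCm38.p6, with the seed in capitals.
let-7a-5p: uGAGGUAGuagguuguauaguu
miR-17-5p: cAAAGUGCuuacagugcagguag
miR-27a-3p: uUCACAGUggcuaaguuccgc
miR-29a-3p: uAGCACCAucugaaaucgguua

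Of the 7 genes, Sgms1, Sptlc2, Ugcg and Cers4 held matches, and Sphk1, Degs1 and Cers5 held 0 for the 11 families. Their 3' UTRs were 288 bases long in Sphk1, 975 in Degs1, 1528 in Cers5, 1618 in Sgms1, 2440 in Ugcg, 4843 in Sptlc2 and 7900 in Cers4, against a median of 1367 over 9509 tested genes. Sgms1 held 2 matches, Ugcg 2, Sptlc2 5 and Cers4 13, with the most in the longest UTR. For single families, the share of all tested genes with a match ran from 8.73% for miR-21 to 19.4% for miR-181, and each family matched 0 to 2 of the 7 genes. The share of all genes with a match to any of the 11 families was not computed. How many of the 7 held any match can therefore not be set against these single-family shares. A match to the let-7 letters was found in 12.1% of genes, to miR-27 in 19.2%, to miR-17 in 15.5% and to miR-29 in 17.1%. In Cers4, 1 miR-181 match and 1 miR-221 match overlap each other. The Cers4 UTR searched runs to position 4531680, past the RefSeq gene end at 4529603. The Cers4 matches from position 4529673 on, the overlapping pair included, lie past that end. The windows below, from GENCODE M21 transcripts on GRCm38, show both Sgms1 matches, the miR-29 match close to the Sptlc2 stop codon, and the let-7 matches of Ugcg and Cers4, with the match in capitals and chromosome positions for the whole window.
Sgms1, miR-27, chr19:32124198-32124221, minus strand: tacctgctcagcACTGTGAtcttt
Sgms1, miR-17, chr19:32122747-32122770, minus strand: attaatcaaaatGCACTTTttaat
Sptlc2, miR-29, chr12:87309882-87309900, minus strand: gcctttcTGGTGCTcccta
Ugcg, let-7, chr4:59220905-59220928, plus strand: catgctttatgcCTACCTCttgta
Cers4, let-7, chr8:4523855-4523878, plus strand: gacagggaggccCTACCTCaaggt

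A library that stood apart bears on several of the results. The analysed genes held 13569034 to 30268077 reads per library, the most in DICER_KO replicate 3. In that library they made up 71.5% of the library size implied by the values, against 75.21 to 77.12% in the others. Dicer1 stood at 6.14, 6.09 and 6.14 log2 CPM (counts scaled to library size, on a log scale) in the controls. In DICER_KO it stood at 5.43, 5.47 and 5.49, a fall of 0.66 (SE 0.10, limma adjusted p = 0.015), or of 0.67 without DICER_KO replicate 3. This value is for the whole gene, and which exons are floxed is not given in the sources used here. All 16 listed markers of mature adipocytes had a value, with a summed level of 8541 to 10538 CPM in controls. Their sum was 13919, 13749 and 4290 CPM in DICER_KO replicates 1, 2 and 3, with Fabp4, a large part of it, at 12.73, 12.72 and 10.81 log2 CPM. In replicates 1 and 2, 13 of the 16 markers lay above every control, while Lpl and Car3 lay below in both and Cd36 in replicate 1. In replicate 3 all 16 lay below every control. Over all 10054 genes tested, 3699 and 3635 lay above every control in replicates 1 and 2, and 2906 lay below every control in replicate 3. The 15 measured preadipocyte and fibroblast markers summed to 15895 to 18579 CPM in controls and 11111 to 12062 in DICER_KO. The matrix genes Fn1 and Col1a1 were the highest of them, at control means of 12.15 and 12.03 log2 CPM, and differed by -0.51 and -0.70. Pdgfra and Pdgfrb differed by -0.06 and 0.02. Of the 13 tested, 10 differences were negative and 3 positive. Only 1 of the 13, Col3a1, had an adjusted p under 0.05, where 0.438% of all genes tested did. Col3a1 differed by -1.44 (limma adjusted p = 0.00856). Macrophage markers (6 of 10 with a value) summed to 33.6 to 38.6 and 38.4 to 39.6 CPM, and endothelial markers (5 of 8) to 5.43 to 6.30 and 6.71 to 8.77 CPM. Of the macrophage markers, Cd68 differed by 0.39, Cd14 by -0.17 and Csf1r by -0.16, while Fcgr1, Lyz2 and Mrc1 lay under 1 CPM in every library. The macrophage markers Ptprc and Adgre1 are not analysed here. Among the endothelial markers, Pecam1 lay under 1 CPM in every library. Tek read 2.10, 2.00 and 1.93 log2 CPM over the controls and 2.48, 2.88 and 2.66 over DICER_KO. Kdr went the other way, at 0.33, -0.55 and 0.58 over the controls and -2.82, -1.08 and 0.07 over DICER_KO. Tek differed by 0.67 and Kdr by -1.39, the latter from 2 to 44 reads per library. In bulk RNA, fewer cells of a type and less RNA per cell cannot be told apart. The differences of the synthesis genes are therefore also given without DICER_KO replicate 3, and these p-values leave out the spread that this library adds.

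None of the 7 synthesis genes passed the test with all libraries. Sphk1 and Sgms1 had the largest differences, -0.47 and 0.41 on the log2 scale, and the other 5 genes differed by less than 0.2. The test was limma on the deposited log2 CPM, with p-values adjusted over all genes tested and a threshold of 0.05. By it 0 of 7 genes were called, where 0.438% of all genes were, 0.149% higher and 0.288% lower. An unadjusted p under 0.05 was reached by 2 of the 7, where 15.8% of all genes reached it, and limma-voom on reads recovered from the values also called 0. The 7 differences had a median of 0.03, and all genes tested had a median of 0.02. Values in the groups did not overlap in 1 of 7 genes, Sphk1, where they did not overlap in 20.2% of all genes (10.4% higher and 9.81% lower in DICER_KO).

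**Figure D1:**
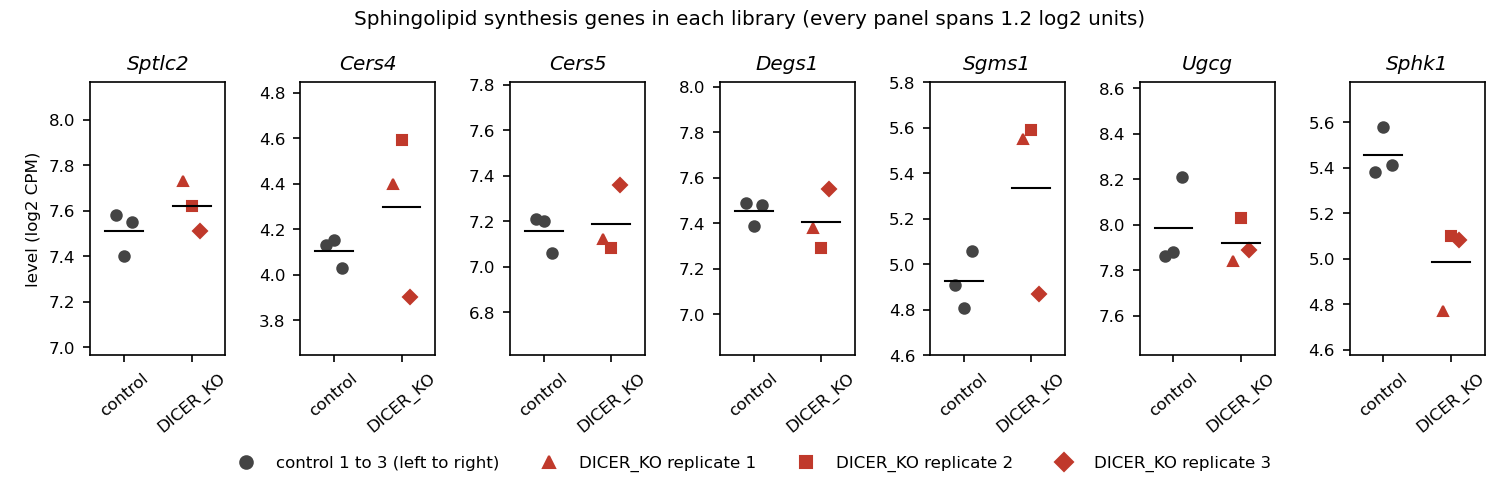
Level of each synthesis gene in log2 CPM (vertical axis, 1.2 log2 units in every panel) in 3 control and 3 DICER_KO libraries, with group means as bars. The DICER_KO libraries all lie below the controls for Sphk1, while Sgms1 is higher in replicates 1 and 2 and lies within the control range in replicate 3.

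De novo synthesis begins with serine palmitoyltransferase, whose catalytic subunit is encoded by Sptlc2 (Entrez 20773; GRCm38 chromosome 12, 87305058 to 87388355). Sptlc2 read 7.58, 7.40 and 7.55 log2 CPM over controls 1 to 3, against 7.73, 7.62 and 7.51 over DICER_KO replicates 1 to 3. Replicates 1 and 2 lay above all controls and replicate 3 lay among them. The difference was 0.11 (SE 0.11, 95% interval -0.12 to 0.35, limma adjusted p = 0.584), and 0.17 without replicate 3 (adjusted p = 0.228). The group means were 7.51 ± 0.10 and 7.62 ± 0.11 log2 CPM (SD, n = 3). The partner subunit, Sptlc1, is not analysed here, so the planned balance of the subunits was not computed.

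Ceramide synthases differ in the acyl chain they add. Cers5 (Entrez 71949; chromosome 15, 99735592 to 99772515) encodes a synthase that prefers palmitoyl-CoA. Its levels were 7.21, 7.20 and 7.06 log2 CPM in controls and 7.12, 7.08 and 7.36 in DICER_KO. Here replicate 3 was the highest of the 6 libraries, and replicates 1 and 2 lay within the control range. The difference was 0.03 (SE 0.11, 95% interval -0.21 to 0.27, limma adjusted p = 0.899), and -0.06 without replicate 3 (adjusted p = 0.698).

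Cers4 (Entrez 67260; chromosome 8, 4492818 to 4529603), which encodes a synthase for longer saturated acyl chains, read 4.13, 4.15 and 4.03 log2 CPM in controls and 4.40, 4.59 and 3.90 in DICER_KO. Replicates 1 and 2 lay above all controls and replicate 3 below all of them. With all libraries the difference was 0.19 (SE 0.17, 95% interval -0.18 to 0.57, limma adjusted p = 0.548). Without replicate 3 Cers4 rose by 0.39 (SE 0.12, adjusted p = 0.0341). Against the control mean, the 3 DICER_KO libraries of Cers4 lay at 0.30, 0.49 and -0.20, while the median of the mature adipocyte markers lay at 0.60, 0.60 and -1.15 on the same scale. Their part in the Cers4 values was not tested. The reads behind Cers4 were the fewest of the 7 genes, 371 to 633 per library. Exons of Cers4 share 886 bases with Vmn2r-ps89 and 214 with Gm36956, both on the other strand, and without strand their reads cannot be told apart.

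The balance between the synthases was expressed as the share of each gene in their summed reads per kb of exon. Cers3, the other synthase gene with a value, was at 0.122 to 0.339%, and Cers5 took 96.5, 96.5 and 96.3% in controls and 95.5, 94.9 and 97.3% in DICER_KO. The Cers4 share was 3.29, 3.37 and 3.40% in controls and 4.17, 4.87 and 2.56% in DICER_KO. Its DICER_KO values fell on both sides of the controls, with replicates 1 and 2 higher and replicate 3 lower. The Cers4 share averaged 3.35 ± 0.0582% over the controls and 3.87 ± 1.19% over the DICER_KO libraries (SD, n = 3), which is 0.516 percentage points more (exact two-sided permutation p = 0.5). The smallest p that 3 against 3 libraries can give is 0.1, and the difference was 1.17 percentage points without DICER_KO replicate 3, 0.0137 without replicate 2 and 0.365 without replicate 1. These shares leave out the reads of the synthase genes that are not analysed here. Cers4 has a long annotated 3' UTR, and per coding length its share was 11.2 ± 0.179% and 12.7 ± 3.60%.

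The desaturase that turns dihydroceramide into ceramide is encoded by Degs1 (Entrez 13244; chromosome 1, 182275964 to 182282854). Degs1 read 7.49, 7.39 and 7.48 log2 CPM in the controls, against 7.38, 7.29 and 7.55 in DICER_KO. Replicates 1 and 2 lay below every control, and replicate 3 above every control. The difference was -0.05 (SE 0.10, 95% interval -0.28 to 0.18, limma adjusted p = 0.818), and -0.12 without replicate 3 (adjusted p = 0.369). Degs1 and Cers5 thus had their highest value in replicate 3, where Cers4 had its lowest.

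Ceramide leaves for sphingomyelin through sphingomyelin synthase, encoded by Sgms1 (Entrez 208449; chromosome 19, 32122727 to 32389885). Sgms1 read 4.91, 4.81 and 5.06 log2 CPM in controls and 5.55, 5.59 and 4.87 in DICER_KO, from 635 to 1241 reads per library. It was above every control in replicates 1 and 2 and within the control range in replicate 3. With all libraries the difference was 0.41 (SE 0.18, 95% interval 0.01 to 0.80, unadjusted p = 0.0442, limma adjusted p = 0.304). Without replicate 3 Sgms1 rose by 0.64 (SE 0.11, 95% interval 0.40 to 0.88, adjusted p = 0.000968), the largest difference among the 7 genes in that fit. Leaving out each of the other 5 libraries in turn gave differences of 0.28 to 0.48. The mature adipocyte markers, by their median, likewise lay above the control mean in replicates 1 and 2 and not in replicate 3, and their part in the Sgms1 values was not tested. Exons of Sgms1 share 10 bases with a gene on the other strand, 2700046G09Rik.

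Ugcg (Entrez 22234; chromosome 4, 59189507 to 59222833) encodes glucosylceramide synthase, which opens the glycosphingolipid branch. It stood at 7.86, 7.88 and 8.21 log2 CPM in the controls, and at 7.84, 8.03 and 7.89 in DICER_KO. The groups overlapped, and control replicate 3 was the highest library. The difference was -0.06 (SE 0.12, 95% interval -0.33 to 0.20, limma adjusted p = 0.809), and -0.05 without DICER_KO replicate 3 (adjusted p = 0.783). Since Ugcg and Sgms1 encode enzymes that use the same substrate, their log2 levels were also subtracted within each library. Ugcg minus Sgms1 was 2.95, 3.07 and 3.14 in controls and 2.29, 2.44 and 3.02 in DICER_KO. Replicates 1 and 2 lay below every control and replicate 3 lay among the controls. The means were 3.05 ± 0.0983 and 2.58 ± 0.384 (SD, n = 3), a difference of -0.47 with an exact two-sided permutation p = 0.2, where 0.1 is the smallest possible. Without replicate 3 the difference was -0.688.

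Sphk1 (Entrez 20698; chromosome 11, 116530836 to 116536675) encodes sphingosine kinase 1, which makes the signalling lipid sphingosine 1-phosphate and so draws on the breakdown product of ceramide. Sphk1 read 5.38, 5.58 and 5.41 log2 CPM in controls and 4.77, 5.10 and 5.08 in DICER_KO, from 480 to 1436 reads per library. No DICER_KO library reached the lowest control. With all libraries the difference was -0.47 (SE 0.12, 95% interval -0.75 to -0.20), a ratio of 0.720, with an unadjusted p of 0.00311 and a limma adjusted p of 0.125. Without DICER_KO replicate 3 Sphk1 fell by 0.52 (adjusted p = 0.0067). Replicate 3 lay 0.37 below the control mean and replicates 1 and 2 lay 0.69 and 0.36 below it, so Sphk1 was low in replicate 3 as well. Preadipocyte and fibroblast markers, by their median, also lay below the control mean in each DICER_KO library, at -0.24, -0.10 and -0.32, and their part in the Sphk1 values was not tested. The annotation places 192 exonic bases of Sphk1 under a gene on the other strand, Gm29292, and reads of the pair cannot be told apart without strand.

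Pold4 and P4ha1 were among the 3 genes whose 6 values followed Sphk1 most closely, by root mean square difference after each gene's control mean was subtracted, at 0.0609 and 0.0623 log2 units. Pold4 encodes a subunit of DNA polymerase delta and P4ha1 a collagen prolyl hydroxylase subunit. Their differences were -0.44 and -0.45 (limma adjusted p = 0.261 and 0.147), so neither passed the test.

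Without DICER_KO replicate 3, 3 of the 7 synthesis genes passed the limma test, and 19.7% of all genes did. Sgms1 and Cers4 rose, where 12.5% of all genes rose, and Sphk1 fell, where 7.22% fell. The median of the 7 differences was then -0.05, against 0.02 over all genes. Sptlc2, Cers5, Degs1 and Ugcg did not pass in either fit, and their 95% intervals with all libraries ran from -0.33 to 0.35 at the widest.

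**Figure D2:**
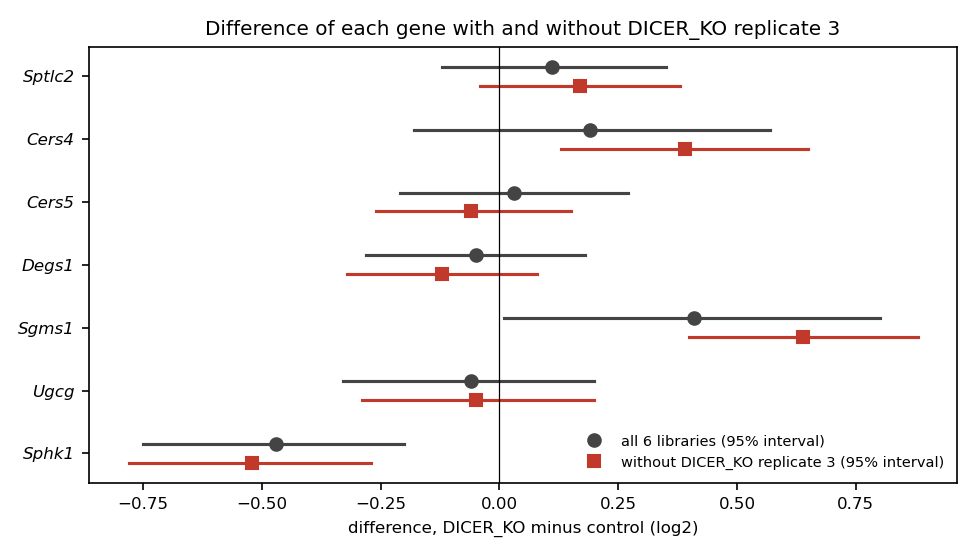
Difference of each synthesis gene between DICER_KO and control on the log2 scale (horizontal axis), with 95% intervals from limma, for all 6 libraries and without DICER_KO replicate 3. The intervals of Sgms1 and Cers4 move away from 0 without replicate 3, that of Sphk1 lies below 0 in both fits, and those of Sptlc2, Cers5, Degs1 and Ugcg include 0 in both.

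Per kb of annotated exon, the order of the levels was Degs1, Ugcg, Cers5, Sptlc2, Sphk1, Sgms1 and Cers4. Degs1 averaged 6.08 ± 0.06 log2 CPM per kb in controls and Ugcg 5.60 ± 0.19, and their 6 libraries did not overlap (SD, n = 3). Ugcg and Cers5 (5.33 ± 0.08) overlapped across libraries, at 5.46 to 5.82 and 5.24 to 5.53. Sptlc2 followed at 4.49 ± 0.10, Sphk1 at 3.20 ± 0.11, Sgms1 at 1.53 ± 0.13 and Cers4 at 0.49 ± 0.06, each apart from its neighbours in all 6 libraries. The distance between Sphk1 and Sgms1 was smaller in DICER_KO, at 2.73 ± 0.19 and 1.94 ± 0.40 log2 CPM per kb (SD, n = 3). Parts of this order rest on the length used: per kb of coding sequence the control mean of Ugcg (7.74) was above that of Degs1 (7.50), and in DICER_KO Sgms1 (5.01) was above Sphk1 (4.76). Cers5 and Sptlc2, apart per kb of exon, were close per kb of coding sequence, at 6.84 and 6.76 in controls and 6.88 and 6.87 in DICER_KO.

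**Figure D3:**
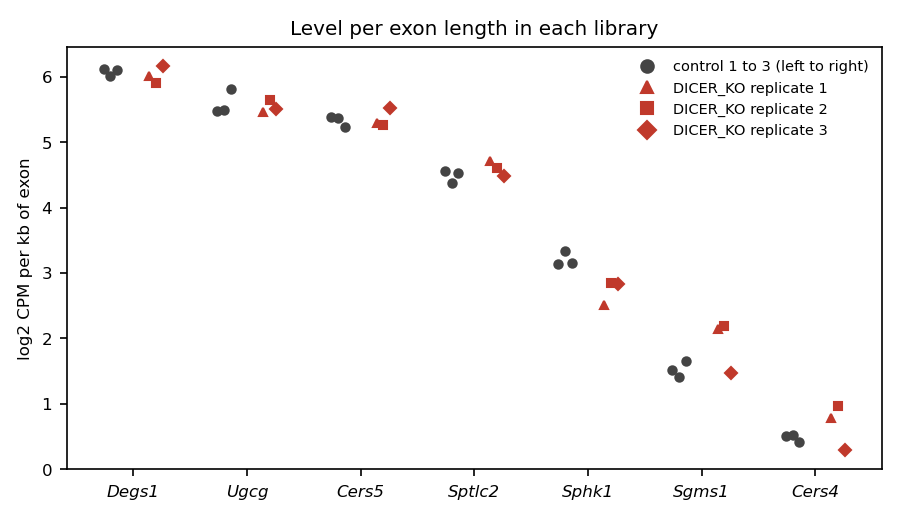
Level of each synthesis gene in log2 CPM per kb of exon (vertical axis) in each control and DICER_KO library. Degs1 is highest and Cers4 lowest in every library, and Sphk1 and Sgms1 lie closer to each other in each DICER_KO library than in any control.

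Around these enzymes, 64 further genes of the pathway were listed, of which 50 had a value and 43 were tested. With all libraries 1 rose (Fa2h) and 1 fell (S1pr1), with differences on both sides of 0 in each list. These calls made up 4.65% of the 43, where 0.438% of all genes tested were called, 0.149% higher and 0.288% lower. Fa2h was under 1 CPM in every control and passed the filter on low values only through DICER_KO. The count over these lists and its share are therefore a description. Fa2h, which encodes the hydroxylase for the acyl chains of ceramides, read -0.91, -0.22 and -0.88 log2 CPM in controls and 1.43, 1.64 and 0.61 in DICER_KO, and rose by 1.90 (SE 0.34, limma adjusted p = 0.0493) from 12 to 75 reads per library. S1pr1, a receptor for sphingosine 1-phosphate, read 4.98, 4.95 and 4.88 log2 CPM in controls and 4.05, 3.65 and 4.36 in DICER_KO, and fell by 0.92 (SE 0.16, limma adjusted p = 0.0489). Without DICER_KO replicate 3 Fa2h rose by 2.20 (limma adjusted p = 0.000345) and S1pr1 fell by 1.09 (4.16e-05). With all libraries both calls stand just under the threshold, and both were lost when any library other than DICER_KO replicate 3 was left out. The listed de novo synthesis genes other than the members had a median difference of 0.10 (6 tested), sphingomyelin turnover and ceramide transport 0.12 (8), ceramide breakdown and sphingosine 1-phosphate 0.05 (14) and glycosphingolipids 0.00 (15). Without DICER_KO replicate 3 these medians were 0.21, 0.09, 0.05 and -0.02.

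Downstream of Sphk1, the receptor gene S1pr3 differed by -0.49 (limma adjusted p = 0.0965). Sgpl1, the lyase that ends sphingosine 1-phosphate, differed by 0.42 (0.163), and Asah1, the acid ceramidase, by 0.35 (0.178). In the glycosphingolipid branch that Ugcg opens, the galactosidase gene Gla differed by 0.50 (0.112) and the lactosylceramide synthase gene B4galt5 by -0.19 (0.378). Smpd3, whose neutral sphingomyelinase returns sphingomyelin to ceramide, differed by -0.80 (0.228). Sgms2, the second sphingomyelin synthase gene, differed by 0.27 (0.316), and Samd8, its relative for ceramide phosphoethanolamine, by 0.26 (0.276). Beside Sptlc2, Sptssa, a small subunit of serine palmitoyltransferase, differed by 0.41 (0.258) and the inhibitor gene Ormdl3 by -0.07 (0.836). Degs2, the relative of Degs1 that also makes phytoceramide, differed by -0.51 (0.279), lower in every DICER_KO library, and Kdsr, the ketosphinganine reductase gene, by 0.23 (0.322). None of these passed the adjusted test. Without DICER_KO replicate 3, 9 of the 43 passed, Fa2h included, where 19.7% of all genes did. Besides Fa2h and S1pr1, S1pr3 fell by 0.50, and Sptssa (0.46), Sgms2 (0.36), Smpdl3a (0.56), Sgpl1 (0.53), Asah1 (0.42) and Gla (0.59) rose.

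**Figure D4:**
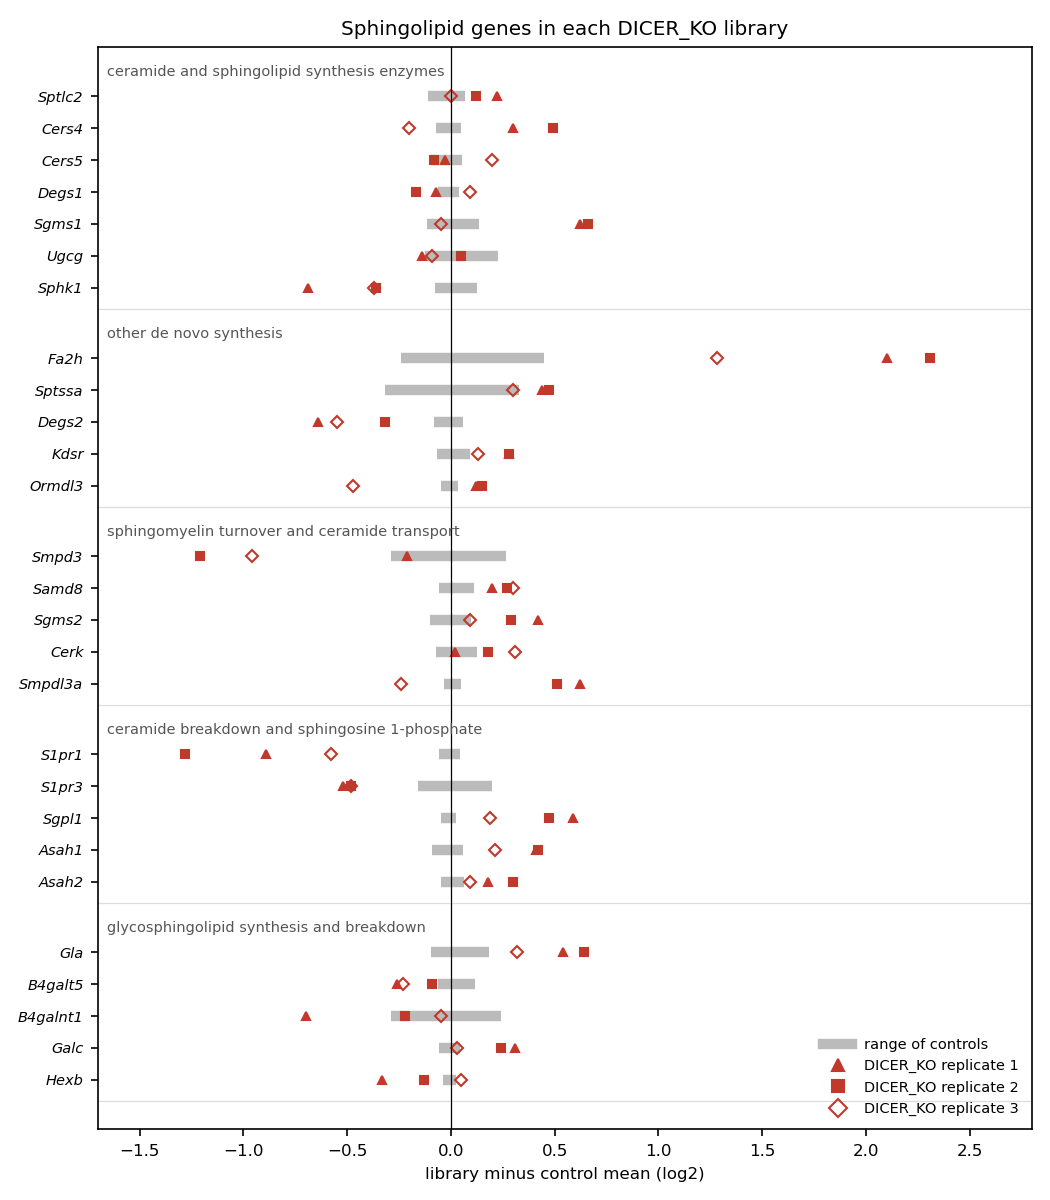
Each DICER_KO library minus the control mean on the log2 scale (horizontal axis) for the 7 synthesis genes and the 5 genes with the smallest p in each further list, with the range of controls in grey. Sphk1, S1pr1, S1pr3, Degs2 and B4galt5 lie below the controls in all 3 libraries. Fa2h, Kdsr, Samd8, Sgpl1, Asah1, Asah2 and Gla lie above them. Sptlc2, Sgms1, Cers4, Sptssa, Ormdl3, Sgms2, Smpdl3a and Galc are above in replicates 1 and 2 but not in replicate 3. Groups did not overlap in 30.2% of the 43 further genes tested and in 20.2% of all genes tested. The first share includes Fa2h, which passed the filter on low values only through DICER_KO, so it is a description.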

How the data were processed

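Libraries were prepared from poly(A) RNA with NEBNext Ultra II, per the labels. The authors deposited log2 CPM, 1 column for each of 6 libraries. HISAT2, featureCounts, edgeR, Trimmomatic and FastQC are the tools listed in the submitters' processing notes, with GRCm38 and mm10 as builds and no roles. Counting by strand is not given in the sources used here. All values equal the log2 of (whole reads + 0.5) over an implied library size of 17594568 to 42331787, within 0.01 reads, taking the lowest value as 0 reads.

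Entrez IDs were matched to RefSeq symbols of GRCm38.p6 (13682 of 13734). Genes reaching 1 CPM in 3 or more libraries were fitted with limma 3.58.1 (R 4.3.3), with an intensity trend and group as the only term. P-values were Benjamini-Hochberg adjusted at 0.05. Differences on this scale understate changes of low genes. The test was checked on simulated data. Single values per library were compared by exact permutation (scipy 1.17.1). Exon and coding lengths and 3' UTRs are from GENCODE M21, whose transcripts may differ from those counted. The members, gene lists and tests were chosen with earlier results of these data known. Named genes are the members, Dicer1, markers, the 3 genes most like the member with the smallest p (1 of them is not reported here), and up to 5 genes with the smallest p in each further list. Alternatives changed the filter, scale, test, replicate term and libraries.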

Additional observations from a re-analysis of the deposited data

How the results depend on the processing

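Among the 7 synthesis genes, filters, scaling, log2(CPM + 1), limma-voom and the replicate block called 0. Array weights, whose estimate stopped short of convergence, called 3 of the 7 (Cers4 0.36, Sgms1 0.61, Sphk1 -0.41) and 4484 genes in all (44.6%), with 4, 4, 7 and 4 in the further lists of de novo synthesis, sphingomyelin, ceramide breakdown and glycosphingolipids. Near 0 the sign turned for Cers5 (-0.0033 after median centring, -0.09 with array weights) and, with array weights, for Ugcg (0.07) and Ormdl3 (0.09). The de novo list had 0 calls at 5 CPM, with log2(CPM + 1), limma-voom or the replicate block, and the ceramide breakdown list 0 at 5 CPM, with limma-voom or the block.

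Leaving out 1 library at a time gave 1 to 1983 genes in all, 0 to 3 of the 7, and 0 to 2, 0 to 2, 0 to 4 and 0 to 1 in the further lists, the highest each time without DICER_KO replicate 3. The log2 differences then ran from 0.05 to 0.39 for Cers4, -0.06 to 0.08 for Cers5, -0.12 to 0.01 for Degs1, 0.28 to 0.64 for Sgms1, -0.53 to -0.37 for Sphk1, -0.12 to 0.05 for Ugcg and -0.18 to 0.13 for Ormdl3. Ugcg minus Sgms1 ran from -0.688 to -0.324, and the difference in Cers4 share from 0.0137 to 1.17 percentage points. The cause of these changes was not tested.

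The replicate block left 2 genes called in all, and Fa2h and S1pr1 missed the threshold (adjusted p = 0.145 and 0.173). Deviations of same-numbered control and DICER_KO libraries correlated at 0.196, -0.0142 and -0.0786. The first was the highest of all pairs, while control replicate 2 correlated best with DICER_KO replicate 3 (0.166). With 3 libraries per group, these values cannot settle whether same-numbered libraries belong together. Depth limits Fa2h, whose call rests on 12 to 75 reads per library.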
